A study of Mus musculus with 24 samples.

Results

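Imprinted genes were followed in mouse embryonic jaws (embryonic day 12.5). They are genes of which mainly the copy from 1 parent is active. The set held 34 genes, taken from known imprinted clusters by gene symbol without regard to their measured values. Of these, 31 had a probe set annotated to 1 gene symbol, and all 31 were above background in enough arrays to be tested, among 14879 genes tested in all. Each gene was read from its probe set with the highest mean over the arrays. Rtl1 and Dio3 had no such probe set in the annotation used, H19 only a probe set that carries a further symbol, and Snrpn was read from 1 probe set while 6 others with several symbols were left out.

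The study measured total RNA on 24 single-colour Affymetrix arrays in 8 groups of 3, given by genotype, jaw and end of the jaw. In the embryos labelled knockout, Wnt1-Cre deleted floxed Tgfbr2, the gene of a receptor that binds TGF-beta ligands. Wnt1-Cre acts in the neural crest, the source of the bone, cartilage and connective tissue of the face, so epithelium, skeletal muscle and the inner lining of vessels keep the gene. Mutants were recognised by a cleft palate and a calvarial defect. The parents were Wnt1cre;Tgfbr2fl/+ and Tgfbr2fl/fl mice, and controls were littermates, for which the sources used here do not state which of these alleles they carried. The strain label of all arrays is C57B6. Both jaws of each genotype were sampled, and their distal and proximal ends were measured apart. Embryo age was the same in all groups. Nothing in the labels states that replicates are different embryos, so the p-values measure the spread between arrays, which may be technical. Arrays of the same genotype and replicate number may share a source, and unless stated the p-values treat all 24 arrays as independent.

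Imprinted genes lie in clusters controlled by DNA methylation laid down in the egg or the sperm. Many of them act on fetal growth: paternally expressed genes such as Igf2 often promote it, and maternally expressed genes such as Cdkn1c, Phlda2 and Igf2r often restrain it. Several clusters also make long noncoding RNAs that carry microRNAs and small nucleolar RNAs or silence neighbouring genes. The arrays do not separate the 2 parental copies, so the values are the sum of both and say nothing of imprinting itself.

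Promoter windows of the genes on which the results turn are printed here from RefSeq on mouse build GRCm38.p6, each with 250 bases before and 50 bases after the annotated start, 300 bases in all. Usp29 at chr7:6730333-6730632 (plus strand) and Zim1 at chr7:6696383-6696682 (minus strand) are shown because every mandible array lay above every maxilla array for them in both genotypes. Nap1l5 at chr6:58907077-58907376 (minus strand) is shown because it went the other way. Meg3 at chr12:109540746-109541045, Rian at chr12:109603695-109603994 and Magel2 at chr7:62376729-62377028 (all plus strand) are shown because the genotypes differed in Rian, in Magel2 and in a probe set of Meg3. Capitals mark TGCCGC, or its reverse complement, the hexamer that the imprint-keeping protein ZFP57 binds when methylated.
Usp29: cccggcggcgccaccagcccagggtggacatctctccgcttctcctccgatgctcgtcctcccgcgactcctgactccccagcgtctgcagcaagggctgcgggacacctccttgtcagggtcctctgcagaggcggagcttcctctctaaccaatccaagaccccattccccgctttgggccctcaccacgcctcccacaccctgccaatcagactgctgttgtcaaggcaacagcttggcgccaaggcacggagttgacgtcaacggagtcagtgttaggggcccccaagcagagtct
Zim1: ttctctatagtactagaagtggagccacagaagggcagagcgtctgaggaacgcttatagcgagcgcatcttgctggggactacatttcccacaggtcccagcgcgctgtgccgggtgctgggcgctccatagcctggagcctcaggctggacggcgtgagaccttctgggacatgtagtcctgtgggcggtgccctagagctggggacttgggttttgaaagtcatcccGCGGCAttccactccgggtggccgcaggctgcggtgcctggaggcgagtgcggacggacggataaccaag
Nap1l5: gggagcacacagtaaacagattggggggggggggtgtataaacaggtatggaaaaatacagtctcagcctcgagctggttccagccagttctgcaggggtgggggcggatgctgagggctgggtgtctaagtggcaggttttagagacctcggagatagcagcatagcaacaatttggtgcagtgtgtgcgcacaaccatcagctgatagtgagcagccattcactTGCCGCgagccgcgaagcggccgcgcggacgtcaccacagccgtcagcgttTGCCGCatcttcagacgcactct
Meg3: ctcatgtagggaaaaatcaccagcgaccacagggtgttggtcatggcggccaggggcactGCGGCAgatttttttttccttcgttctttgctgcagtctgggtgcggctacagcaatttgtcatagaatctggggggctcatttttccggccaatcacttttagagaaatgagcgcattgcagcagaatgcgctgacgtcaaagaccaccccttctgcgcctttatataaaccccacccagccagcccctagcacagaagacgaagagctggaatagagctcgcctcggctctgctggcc
Rian: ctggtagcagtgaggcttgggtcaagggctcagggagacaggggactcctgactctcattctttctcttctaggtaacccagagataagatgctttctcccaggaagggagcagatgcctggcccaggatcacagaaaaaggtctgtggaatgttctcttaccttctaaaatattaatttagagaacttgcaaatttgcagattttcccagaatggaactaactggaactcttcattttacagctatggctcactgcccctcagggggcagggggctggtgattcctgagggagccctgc
Magel2: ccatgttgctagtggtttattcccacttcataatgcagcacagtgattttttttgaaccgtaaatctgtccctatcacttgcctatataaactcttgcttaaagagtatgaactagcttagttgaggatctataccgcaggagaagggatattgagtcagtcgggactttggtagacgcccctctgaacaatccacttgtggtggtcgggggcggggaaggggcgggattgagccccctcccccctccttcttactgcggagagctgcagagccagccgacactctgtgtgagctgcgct

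The Usp29 window shares 263 bases with that of Peg3, which is read from the other strand, so both genes start from 1 stretch of DNA. It holds 17 CG pairs and no match to the hexamer. The Zim1 window holds 20 CG pairs and 1 match, that of Nap1l5 17 CG pairs and 2 matches, and that of Meg3 13 CG pairs and 1 match. The Rian window holds 0 CG pairs and that of Magel2 10, both without a match. RefSeq gave 44 windows for 28 of the 34 genes, with a median of 13 CG pairs against 7 over all 32851 windows. TGCCGC, searched on both strands, was found in 10 of the 44 windows (22.7%) and in 11.6% of all windows. GCCATNTT, the core of the motif of YY1, was found on either strand in 3 of the 44 (6.82%) and in 6.05% of all. A match is a description of the letters only.

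Most imprinted genes gave a strong signal in the embryonic jaws, and several varied widely among the regions. Gnas, the stimulatory G protein subunit, and Igf2, the fetal growth factor, had the highest means over the 24 arrays, 14.12 and 14.04 on the log2 scale, where 1 unit is a factor of 2 and the highest value of any probe set was 14.70. Levels of different genes are not set against each other here beyond this position within the range. Zim1, a zinc finger gene, was within the lowest 30 percent of the probe sets of the array in 9 arrays (at or below a log2 value of 5.85 to 5.93, used here as background), and Peg10, derived from a retrotransposon, in 3. The range of the 8 group means was widest for Dlk1 (2.67), Nap1l5 (2.61), Asb4 (1.98) and Magel2 (1.88), all as log2 differences, and for Zim1 it was at least 1.79 when its lowest group was set to the background level. It was narrowest for Gnas (0.065), Grb10 (0.095) and Ube3a (0.15).

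**Figure D1:**
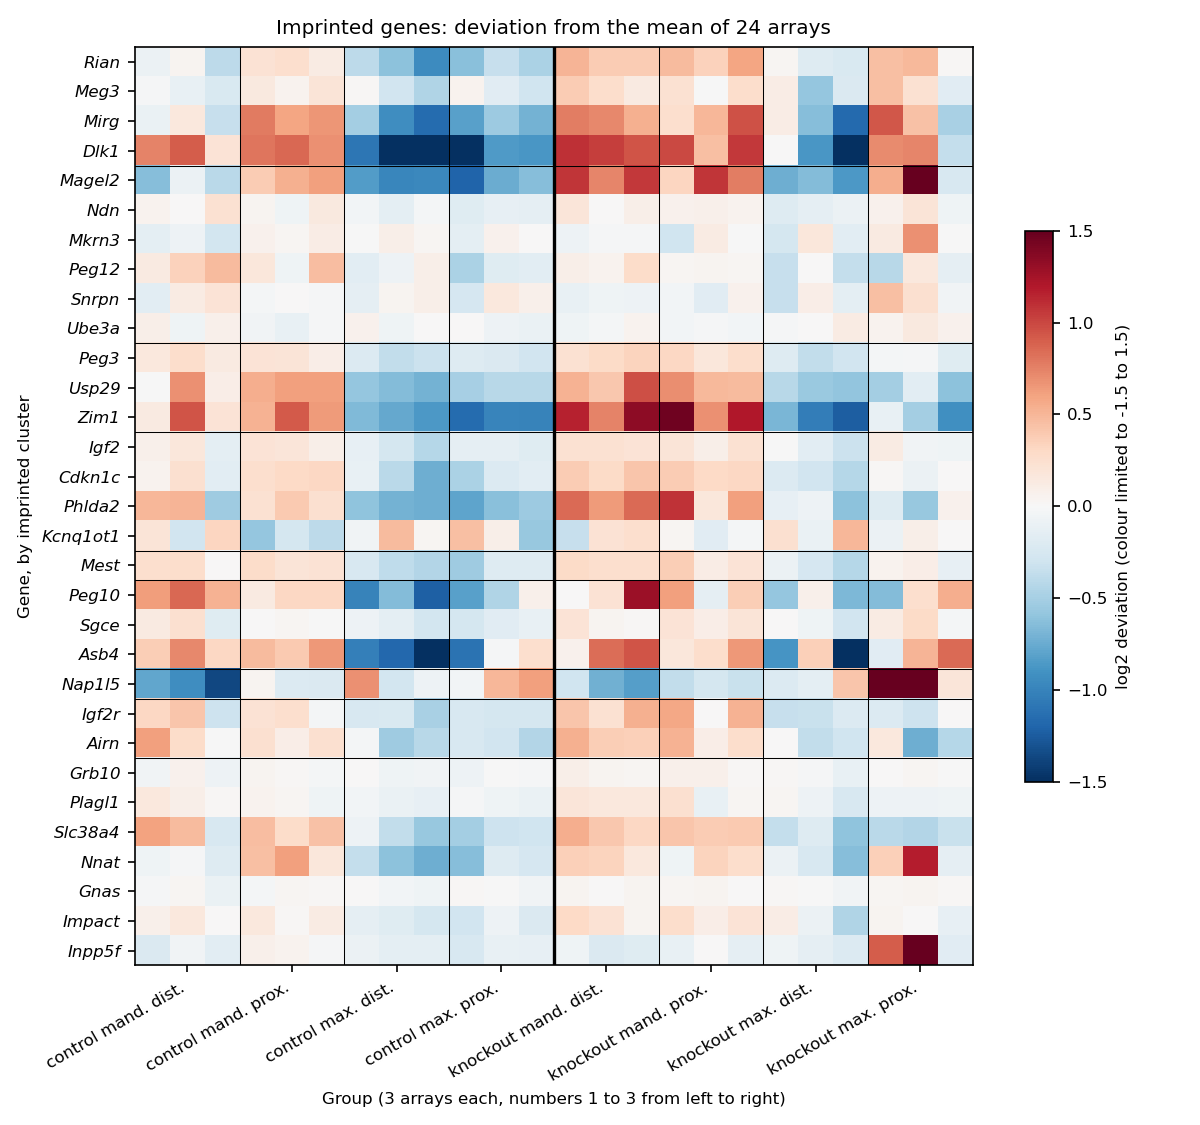
Log2 deviation of each of the 31 imprinted genes (rows, by cluster) from its mean over the 24 arrays (columns, by group). Mandible columns are mostly red in both genotypes, and control maxilla and knockout distal maxilla columns mostly blue. The knockout proximal maxilla columns are mixed, and 2 of these 3 arrays are red for Magel2, Nap1l5 and Inpp5f.

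The labels and the general state of the arrays were checked first. Hand2, a transcription factor of the lower jaw, lay between 11.86 and 13.59 in control mandible and between 5.06 and 6.64 in control maxilla, with a wide gap between the jaws. In knockouts it lay between 10.81 and 13.44 in mandible and between 4.87 and 8.28 in maxilla. Its median was 7.62 in knockout maxilla against 5.63 in control maxilla. Prrx1, a gene of facial mesenchyme, lay between 13.39 and 13.60 in control mandible and between 12.24 and 12.83 in control maxilla, also without overlap. The other mesenchyme markers, Twist1, Msx1, Alx4 and Pdgfra, overlapped between the control jaws. Tgfbr2 itself lay between 11.30 and 12.68 in arrays with the knockout label and between 11.28 and 12.16 in controls, so it did not fall (log2 difference 0.34, SE 0.11, limma adjusted p = 0.112). The sources used here do not state whether its probe set reads the deleted part, so this does not check the genotype labels. The Y-linked gene Eif2s3y was at 10.22 or above in 4 control arrays, those numbered 2, and at 3.88 or below in the other 20, so the sexes are not balanced between the genotypes. By their whole profile, 7 arrays resembled the opposite end of their jaw more than their own group. Of these, 4, array 1 of both ends of control maxilla and of knockout mandible, are called arrays of doubtful end here. Array 2 of control distal maxilla and of knockout distal mandible, and array 3 of knockout proximal maxilla, also resembled the opposite end but are not in that set. The tissue is a mixture, and in bulk RNA fewer cells of a type and less RNA per cell cannot be told apart.

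Mandible and maxilla differed in most imprinted genes. In control embryos 21 of the 31 genes were higher in the mandible and 0 were lower (limma, adjusted p under 0.05 over all genes), or 67.7%, where 16.2% of all genes tested were called higher and 14.7% lower. The difference was above 0 in 28 of the 31, with a median of 0.43 on the log2 scale against 0.015 over all genes. For 11 of them every mandible array lay above every maxilla array, as for 7.9% of all genes tested. The called genes came from most clusters: 3 of 3 in the Peg3 cluster, 3 of 3 in the Peg10 cluster, 3 of 4 in the Dlk1-Dio3 cluster, 3 of 4 in the H19-Igf2 and Kcnq1 region, 3 of 6 in the Prader-Willi and Angelman cluster, 2 of 2 at Igf2r, Mest alone in its domain, and 3 of the 7 genes of small domains.

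The Peg3 cluster separated the jaws without overlap. Peg3, a paternally expressed zinc finger gene with a role in maternal care and fetal growth, lay between 13.66 and 13.82 (median 13.73) in the 6 control mandible arrays and between 13.19 and 13.37 (median 13.31) in the 6 control maxilla arrays. Every control mandible array was above every maxilla array, a log2 difference of 0.44 (SE 0.05, adjusted p = 6.13e-06 by limma). Usp29, a ubiquitin protease gene that starts beside Peg3, lay between 7.24 and 7.94 (median 7.83) in control mandible and between 6.54 and 6.84 (median 6.71) in control maxilla. The groups did not overlap, and the difference was 0.97 (SE 0.11, adjusted p = 1.22e-05 by limma).

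Zim1, the maternally expressed zinc finger gene of the same cluster, lay between 6.67 and 7.48 (median 7.12) in control mandible and between 5.38 and 5.88 (median 5.60) in control maxilla. The difference was 1.47 (SE 0.17, adjusted p = 1.22e-05 by limma), and since the maxilla values lay at the level of background, it is a difference against background. In the knockout arrays the 3 genes separated the jaws in the same way. Peg3 differed by 0.44 (adjusted p = 5.9e-06), Usp29 by 1.07 (6.16e-06) and Zim1 by 1.85 (1.49e-06), again with no overlap. Within the ends, Zim1 was higher in the mandible by 1.19 distally and 1.74 proximally in controls, and by 2.07 and 1.63 in knockouts.

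**Figure D2:**
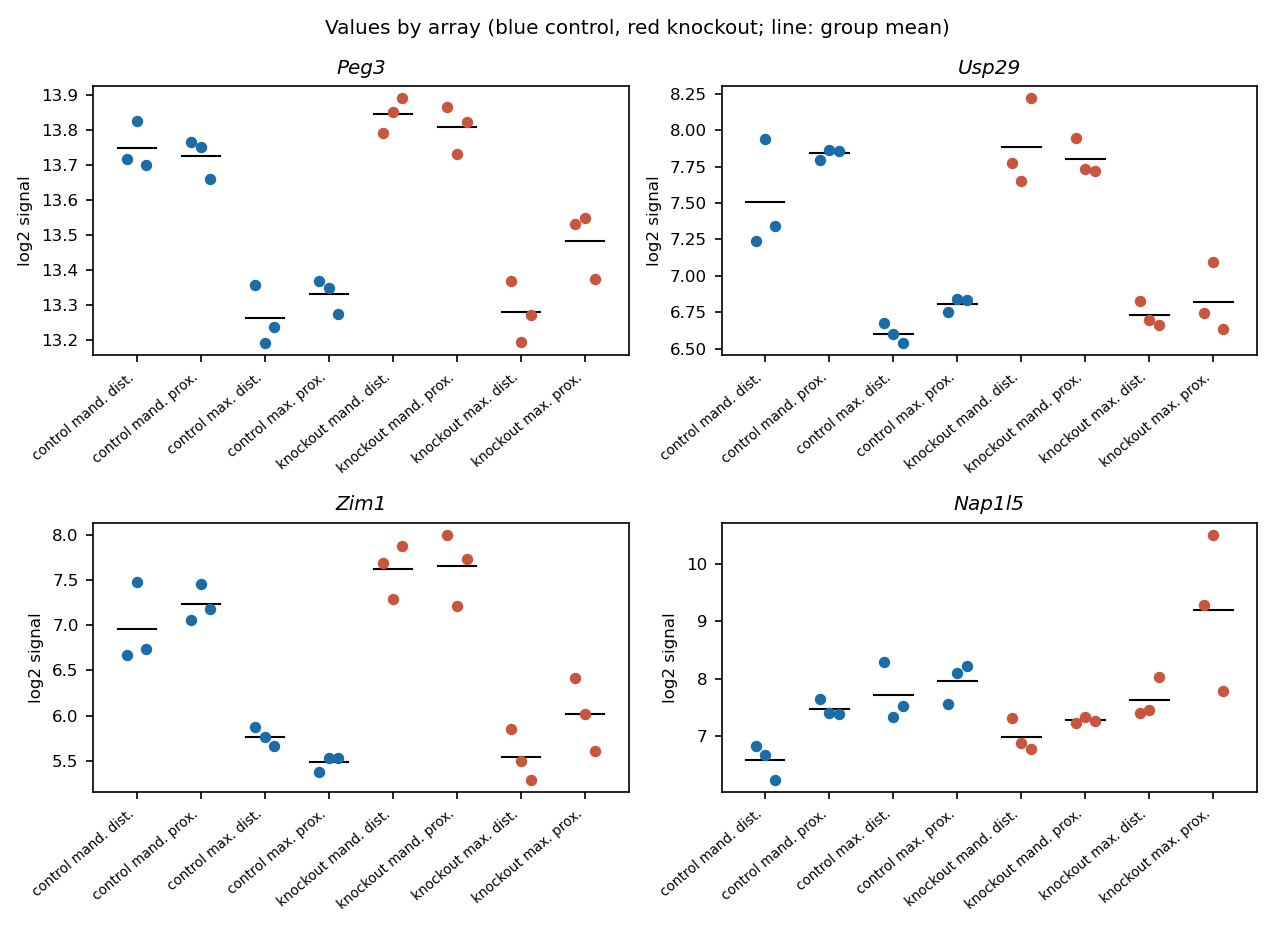
Log2 signal of Peg3, Usp29, Zim1 and Nap1l5 in every array (points; blue control, red knockout), by group, with the group mean as a line; each panel has its own axis. The first 3 genes are higher in all mandible arrays than in all maxilla arrays of either genotype, while Nap1l5 is highest in 2 knockout proximal maxilla arrays, at 9.29 and 10.51.

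The Dlk1-Dio3 cluster on chromosome 12 held the largest difference. Dlk1, a paternally expressed transmembrane protein related to Notch ligands, lay between 12.98 and 13.69 (median 13.56) in control mandible and between 10.70 and 11.93 (median 11.43) in control maxilla. The jaws did not overlap, and the difference was 2.08 (SE 0.26, adjusted p = 2.83e-05 by limma), the largest among the 31 genes. In knockouts it was 1.19 (adjusted p = 0.00374) and the jaws overlapped, since the proximal maxilla reached 13.49 and 13.52 in arrays 1 and 2. The change of the jaw difference with genotype was -0.89 (SE 0.37, unadjusted p = 0.0272) and did not pass adjustment (adjusted p = 0.676 by limma).

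Mirg and Rian are maternally expressed noncoding RNAs of the same cluster. RefSeq places 10 microRNA hairpins inside Mirg, 3 inside Rian and 1 inside Meg3. Mirg lay between 9.47 and 10.59 (median 10.19) in control mandible and between 8.65 and 9.30 (median 9.05) in control maxilla, without overlap, a difference of 1.07 (adjusted p = 0.0014 by limma). Rian lay between 12.71 and 13.36 in control mandible and between 12.16 and 12.76 in control maxilla, with a slight overlap and a difference of 0.59 (adjusted p = 0.00031). Meg3, a maternally expressed noncoding RNA known as a growth suppressor, lay between 12.64 and 13.06 in mandible and 12.42 and 12.92 in maxilla and did not pass (0.19, adjusted p = 0.219).

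In the H19-Igf2 and Kcnq1 region, growth-promoting and growth-restraining genes were both higher in the mandible. Igf2 lay between 13.89 and 14.24 in control mandible and between 13.62 and 13.91 in control maxilla, close to the top of the scale, with a difference of 0.31 (adjusted p = 0.00177 by limma). Cdkn1c, the cyclin-dependent kinase inhibitor p57, lay between 13.58 and 14.04 (median 13.98) in mandible and reached at most 13.62 (median 13.42) in maxilla (difference 0.52, adjusted p = 0.000309). For both genes the lowest mandible array, number 3 of the distal end, lay just below the highest maxilla array.

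Phlda2, which restrains placental growth, lay between 7.28 and 8.32 in control mandible and between 7.02 and 7.26 in control maxilla, without overlap (0.89, adjusted p = 0.000949 by limma). Igf2r, the receptor that clears IGF2 protein, lay between 12.38 and 13.09 in mandible and between 12.20 and 12.45 in maxilla (0.43, adjusted p = 0.00892). Airn, the noncoding RNA that silences Igf2r on the paternal copy, lay between 9.25 and 9.86 and between 8.72 and 9.22 (0.57, adjusted p = 0.00405). Without the control arrays numbered 2, Igf2r (adjusted p = 0.114) and Airn (adjusted p = 0.0542) did not pass, nor did Airn with the mean of all its probe sets (0.31, adjusted p = 0.0946). Kcnq1ot1, the noncoding RNA of the Kcnq1 domain, differed by -0.24 and did not pass (adjusted p = 0.272). All 4 of its tested probe sets were below 0, and a dimmer one with a mean of 9.32 was called lower (-0.63, adjusted p = 0.0351 by limma over probe sets).

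On chromosome 6, Mest, an enzyme-like gene of mesoderm, lay between 13.49 and 13.75 in control mandible and between 12.94 and 13.28 in control maxilla, without overlap (0.53, adjusted p = 5.94e-05 by limma). Asb4, an adaptor of ubiquitin ligases, lay between 11.74 and 12.16 in mandible and between 9.54 and 11.68 in maxilla. Its maxilla values were spread far more than its mandible values, and the difference was 1.32 (adjusted p = 0.00242). Peg10 lay between 6.83 and 7.55 in mandible and between 5.47 and 6.77 in maxilla, without overlap and close to background in maxilla (1.14, adjusted p = 0.00156). Sgce, a sarcoglycan, differed by 0.21 (adjusted p = 0.0345), a call lost under cyclic loess (adjusted p = 0.0674), without the control arrays numbered 2 (0.24), without the arrays of doubtful end (0.082) and in 9 of the 24 fits without 1 array.

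Nap1l5, a gene related to nucleosome assembly proteins, went against most of the others. It lay between 6.25 and 7.64 (median 7.11) in control mandible and between 7.33 and 8.30 (median 7.84) in control maxilla, a difference of -0.81 (adjusted p = 0.0516 by limma). In knockouts no mandible array reached any maxilla array, with 6.77 to 7.34 against 7.40 to 10.51, and the difference of -1.27 passed (adjusted p = 0.0062). Without knockout proximal maxilla arrays 1 and 2, a setting chosen after seeing the data that leaves 1 array in that group, the difference was -0.57. The summed level of neuron markers was highest in these arrays, and its part in the Nap1l5 difference was not tested. Read from the brightest probe sets, Nap1l5 was the lone gene of the 31 called lower in the mandible in either genotype.

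In the Prader-Willi and Angelman cluster, Magel2, a MAGE-family gene with a role in endosomal sorting, lay between 8.14 and 9.39 in control mandible and between 7.58 and 8.14 in control maxilla (0.96, adjusted p = 0.00538 by limma). Peg12, related to the Frat regulators of Wnt signalling, differed by 0.41 (adjusted p = 0.00645) and Ndn, the MAGE-family gene necdin, by 0.17 (adjusted p = 0.0167). Magel2 did not pass without the control arrays numbered 2 (adjusted p = 0.0765 by limma). Peg12 (0.0639) and Ndn (0.0544) did not pass without the arrays of doubtful end. Mkrn3, Snrpn and Ube3a differed by -0.05, 0.02 and 0.01 and did not pass. Of the 6 probe sets of Ube3a 5 were above 0. Dimmer ones with means of 8.47 and 5.73 were called higher (0.42 and 0.41, adjusted p = 0.0101 and 0.0428 by limma over probe sets). Ube3a is imprinted in neurons and read from both copies in most other tissues.

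Among genes of small domains, Slc38a4, an amino acid transporter, lay between 10.96 and 11.81 in control mandible and between 10.63 and 11.12 in control maxilla (0.69, adjusted p = 0.000308 by limma). Nnat, a small membrane protein of the endoplasmic reticulum, differed by 0.62 (adjusted p = 0.00819) and Impact, a regulator of the amino acid sensor GCN2, by 0.28 (adjusted p = 0.00852). Without the control arrays numbered 2 Nnat did not pass (adjusted p = 0.0903 by limma). Grb10, an adaptor that dampens insulin and IGF receptors, differed by 0.03, Gnas by 0.01, Inpp5f, a phosphoinositide phosphatase, by 0.09, and Plagl1, a zinc finger regulator of other imprinted genes, by 0.12. These 4 did not pass.

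**Figure D3:**
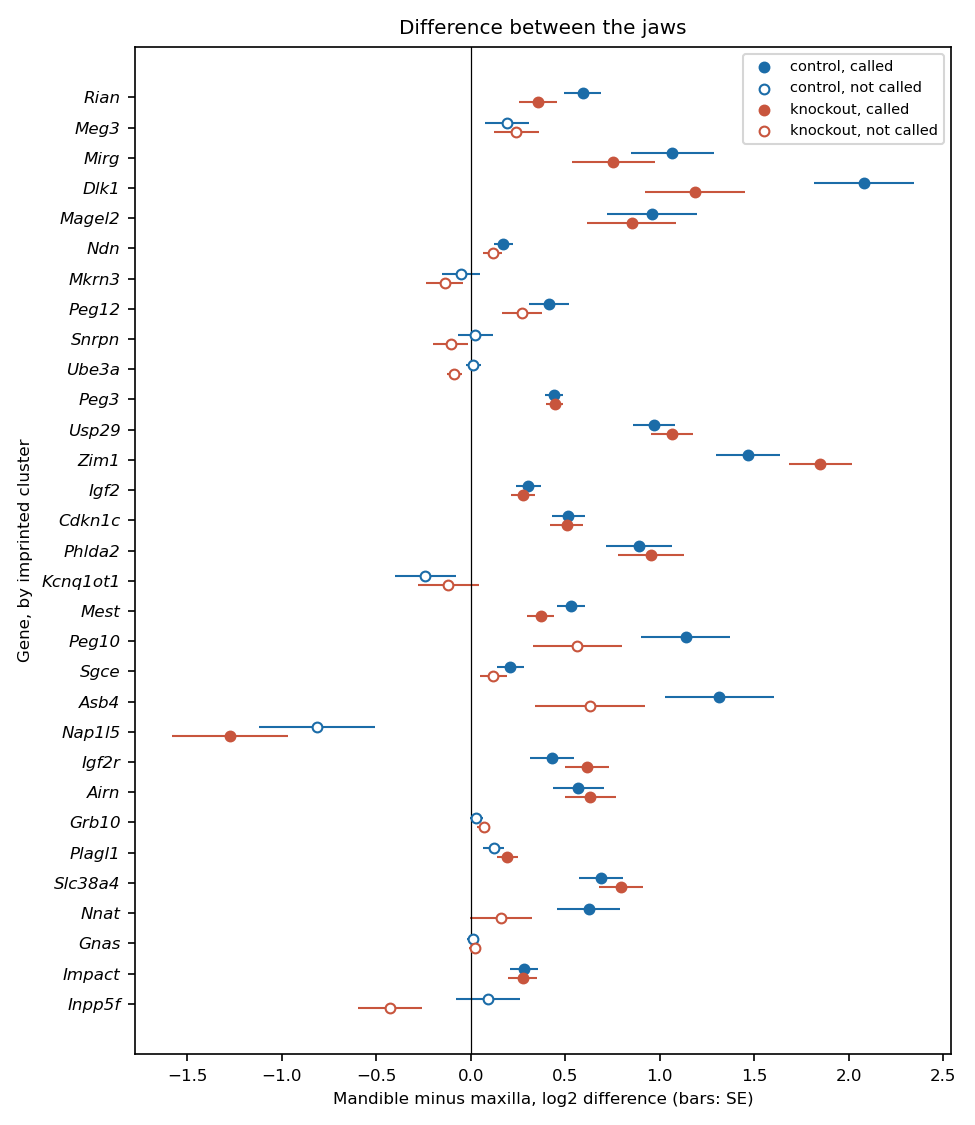
Mandible minus maxilla log2 difference of each imprinted gene in controls (blue) and knockouts (red); bars are standard errors, filled points passed an adjusted p under 0.05. Most points lie to the right of 0 in both genotypes, Dlk1 has the largest control difference at 2.08, and Nap1l5 lies to the left at -0.81 and -1.27.

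The comparison of the jaws in knockouts was added after the control values had been seen. Of the 31 genes 16 were called higher in the mandible and 1 lower, where 13.2% of all genes were called higher and 12.1% lower, and the median was 0.28 against 0.026 over all genes. The differences of the 2 jaw comparisons share no array, but their standard errors come from 1 fit to all 24 arrays, so the calls are not independent. The 15 genes called higher in both made up 71.4% of those called in controls and 93.8% of those called in knockouts. The same overlap over all genes was not computed, so it cannot be read as particular to imprinted genes. Ndn, Peg12, Peg10, Sgce, Asb4 and Nnat passed in controls alone, and Plagl1 in knockouts alone. The test of the difference itself, genotype by jaw, called 0 of the 31 genes (0.0336% of all genes), with 0 higher and 2 lower at an unadjusted p under 0.05, Dlk1 and Inpp5f, where 6.62% of all genes were at that level.

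The jaw difference was also read at each end, and its median was smallest at the proximal end of knockouts. The same counts over all genes were not computed, and the means include the arrays of doubtful end. Without a test, it was above 0 in 27 of 31 genes at the distal end of controls (median 0.46), in 27 at the proximal end of controls (0.41), in 27 at the distal end of knockouts (0.52) and in 19 at the proximal end of knockouts (0.15). Dlk1 differed by 2.26 and 1.90 at the distal and proximal end of controls, by 1.91 at the distal end of knockouts and by 0.47 at their proximal end. Asb4 went from 1.84 and 0.80 in controls to 1.30 and -0.03, and Magel2 from 0.55 and 1.37 to 1.70 and 0.00, with the last value of each at the proximal end of knockouts.

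Markers of several cell types moved with the jaws. All 7 skeletal muscle markers were called higher in control mandible (median 3.36), and their summed level ranged from 10.01 to 14.94 in control mandible and from 9.29 to 11.38 in control maxilla. Myod1, the muscle-determining factor, differed by 2.80 and Myh3, an embryonic myosin, by 3.77, and 1 muscle marker, Ttn (titin), was at background in the control distal maxilla, by its group mean, and 0 in the other groups. Of the 8 neuron markers 2 were higher and 4 lower in control mandible, with summed levels of 12.55 to 14.36 and 13.36 to 13.97. Of the 5 epithelial markers 0 were higher and 4 lower in control mandible, and their summed level did not overlap between the jaws, with 11.24 to 13.20 in mandible and 13.75 to 14.09 in maxilla. Of 4 measured glia markers 0 were higher and 2 lower, with summed levels of 10.34 to 12.63 and 11.61 to 12.49. The part of these cell types in the jaw difference of the imprinted genes was not tested.

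Between the ends of a control jaw no imprinted gene was called. In the mandible 0 of 31 passed, where 3.45% of all genes did, with 1 higher and 5 lower distally at an unadjusted p under 0.05 by limma, a level reached by 18.6% of all genes. For 9 genes every distal array lay below every proximal one, as for 18.7% of all genes. Magel2 was at 8.14, 8.69 and 8.37 distally and 9.17, 9.31 and 9.39 proximally, which do not overlap, a difference of -0.89 (adjusted p = 0.157). Mirg was at 9.71, 9.97 and 9.47 distally and 10.59, 10.40 and 10.47 proximally, also without overlap (-0.77, adjusted p = 0.181). In the control maxilla 0 of 31 passed, as did 0% of all genes, with 0 higher and 1 lower at an unadjusted p under 0.05 (0.692% of all genes), Asb4 (-1.07). Array 1 of either end of this jaw resembled the opposite end more than its own group, and without the 4 arrays of doubtful end 0.699% of all genes and 0 of the 31 were called.

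Knockout against control asked how the imprinted genes respond to loss of Tgfbr2 in neural crest. Over the 4 regions Rian and Magel2 were higher in knockouts and 0 genes were lower, 2 of 31, where 0.47% of all genes tested passed in either direction and 0.282% as higher. The difference was above 0 in 29 of the 31 genes, against 53.7% of all genes, with a median of 0.13 against 0.0082. At an unadjusted p under 0.05 there were 13 genes, all higher, where 12.6% of all genes were higher at that level. Peg12 (-0.09) and Snrpn (-0.02) were the 2 genes below 0. The difference was above 0 in all 4 regions for 13 genes, in 3 for 11, in 2 for 4 and in 1 for 3.

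Rian had the smallest p of the 31 genes. In the distal mandible it was at 13.01, 13.14 and 12.71 in controls and 13.62, 13.49 and 13.49 in knockouts. In the proximal mandible it was at 13.32, 13.36 and 13.22 in controls and 13.58, 13.45 and 13.69 in knockouts. Within either end all knockout arrays were above all controls.

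In the distal maxilla Rian was at 12.70, 12.48 and 12.16 in controls and 13.13, 12.91 and 12.87 in knockouts. In the proximal maxilla it was at 12.48, 12.76 and 12.63 in controls and 13.56, 13.59 and 13.12 in knockouts. The genotypes did not overlap within any of the 4 regions, and the mean difference was 0.54 (SE 0.07, adjusted p = 0.00115 by limma). Without the 4 control arrays that carry the Y-linked signal the difference was 0.59 (adjusted p = 0.00744). Arrays of the same genotype and number may share a source, and a test on 6 means of genotype and number, a replicate block, did not call Rian (adjusted p = 0.281) or any other gene.

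Magel2 differed most in the distal mandible and the proximal maxilla. In the distal mandible it was at 8.14, 8.69 and 8.37 in controls and 9.86, 9.51 and 9.84 in knockouts, without overlap. In the proximal maxilla it was at 7.58, 8.04 and 8.14 in controls and 9.32, 10.66 and 8.54 in knockouts, without overlap but widely spread. In the proximal mandible the groups overlapped, with 9.17, 9.31 and 9.39 against 9.11, 9.86 and 9.55.

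In the distal mandible, where Magel2 separated the genotypes, so did the summed level of muscle markers (10.01 to 14.09 in controls and 14.27 to 15.26 in knockouts) and of glia markers (10.34 to 10.91 and 11.60 to 12.31). Their part in its difference was not tested.

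In the distal maxilla Magel2 was at 7.94, 7.80 and 7.82 in controls and 8.05, 8.13 and 7.92 in knockouts, a small shift with overlap. The mean difference was 0.83 (SE 0.17, adjusted p = 0.0347 by limma). It did not pass without the 4 arrays with the Y-linked signal (0.88, adjusted p = 0.0692), without the 4 arrays of doubtful end (adjusted p = 0.0955), or with genotype and number as a random replicate block (adjusted p = 0.221) or as 6 means (adjusted p = 0.375), and it passed in 7 of the 24 fits that left out 1 array, with values of 0.68 to 0.95.

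The genes next in order did not pass the adjustment. They were Phlda2 (0.45, adjusted p = 0.066), Dlk1 (0.67, adjusted p = 0.0702), Mirg (0.48, adjusted p = 0.0942), Cdkn1c (0.18, adjusted p = 0.111) and Zim1 (0.34, adjusted p = 0.112), all by limma. Rian, Dlk1 and Mirg, 3 of the 4 measured genes of the Dlk1-Dio3 cluster, were among the 7 of the 31 genes with the lowest p. Of the 7 skeletal muscle markers, all had differences above 0 (median 1.93) and 0 passed, though 7 had an unadjusted p under 0.05, with summed levels of 9.17 to 15.26 in knockouts and 9.29 to 14.94 in controls. Their part in the values of the imprinted genes was not tested.

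**Figure D4:**
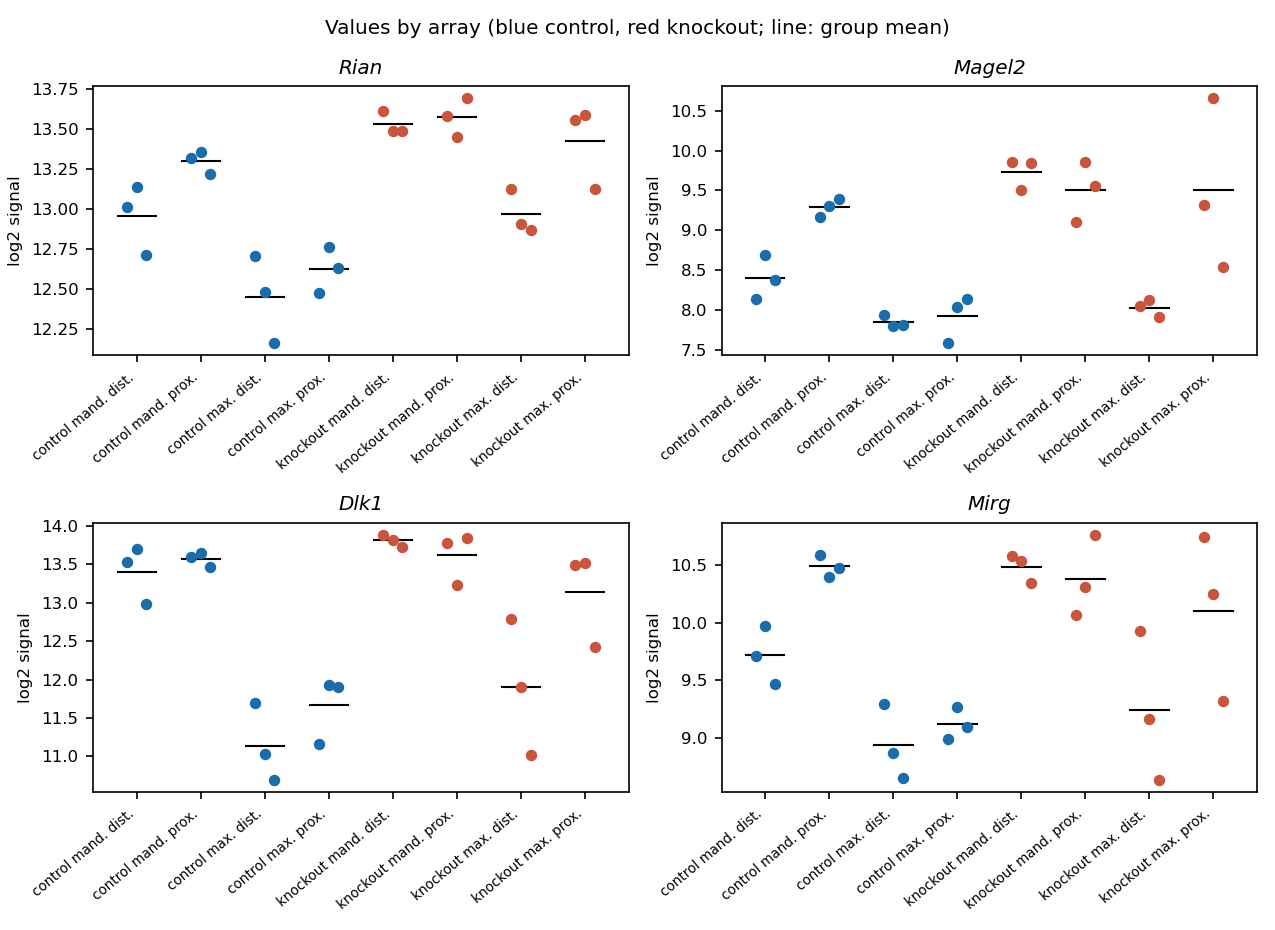
Log2 signal of Rian, Magel2, Dlk1 and Mirg in every array (points; blue control, red knockout), by group, with the group mean as a line; each panel has its own axis. Rian lies higher in knockouts within each region, and in the proximal maxilla knockout arrays 1 and 2 of Dlk1 and Mirg lie above array 3.

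Taken region by region, the calls came from the proximal maxilla. There 5 genes were higher in knockouts and 0 lower, where 3.25% of all genes were called higher and 2.53% lower. The difference was above 0 in 28 of 31 genes (median 0.26 against -0.0048 over all genes), and for 14 genes every knockout array lay above every control, as for 10.8% of all genes. The called genes were Rian (0.80, adjusted p = 0.00945), Magel2 (1.59, adjusted p = 0.0193), Dlk1 (1.48, adjusted p = 0.0305), Inpp5f (0.91, adjusted p = 0.0347) and Nnat (0.83, adjusted p = 0.0445), all by limma. Leaving out 1 array moved the count from 0 (without control 1, knockout 1 or knockout 2) to 14 (without knockout 3), and it was 0 without the 4 control arrays with the Y-linked signal or the 4 arrays of doubtful end. Nnat passed in 6 of the 24 fits without 1 array, with values of 0.47 to 1.13.

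Dlk1 in the proximal maxilla was at 11.16, 11.93 and 11.91 in controls and 13.49, 13.52 and 12.42 in knockouts. Nnat was at 11.30, 11.75 and 11.69 in controls and 12.30, 13.11 and 11.80 in knockouts. Inpp5f was at 9.35, 9.48 and 9.48 in controls and 10.50, 11.12 and 9.42 in knockouts. Knockout array 3 was the lowest for all 3 genes, and for Inpp5f it lay within the controls. Nap1l5 showed the same form, at 7.57, 8.10 and 8.23 in controls and 9.29, 10.51 and 7.79 in knockouts, and did not pass (1.23, adjusted p = 0.0885).

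Neuron markers stood high in the same arrays. All 8 were above 0 in this comparison and 4 passed, among them Nefl (3.90) and Nefm (4.27), which encode neurofilaments, and Isl1 (2.31), a factor of sensory and motor neurons. Their summed level was 16.04, 15.85 and 14.40 in knockout arrays 1, 2 and 3 and between 13.70 and 13.88 in controls, and no marker was at background in either group. Muscle markers were summed to 14.95, 13.76 and 12.30 against 9.85 to 10.66 in controls, and epithelial markers to 11.39, 11.86 and 13.59 against 13.93 to 13.99. Glia markers were summed to 14.10, 14.08 and 12.45 against 11.74 to 12.23, and macrophage markers to 12.12, 12.15 and 11.95 against 10.72 to 11.74. Facial mesenchyme markers were summed to 14.49, 14.31 and 14.92 against 14.77 to 15.11. Knockout array 3 alone, assumed to vary like the other groups, differed from the control mean by 0.50 for Rian, 0.62 for Magel2, 0.76 for Dlk1, 0.22 for Nnat and -0.016 for Inpp5f, and with 1 knockout array left the lack of calls says little. By its whole profile, knockout array 3 resembled the distal end of the knockout maxilla more than its own group. The part of these cell types in the calls was not tested.

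In the other 3 regions no imprinted gene passed. In the distal mandible 0 of 31 did (0.134% of all genes), with 8 higher at an unadjusted p under 0.05 (7.75% of all genes), while 10 genes did not overlap between the genotypes in the upward direction, as for 7.66% of all genes. In the proximal mandible 0 passed (0.0538% of all genes) and 0 were higher at that unadjusted level (2.1% of all genes). In the distal maxilla 0 passed (0.0202% of all genes) with 1 higher at an unadjusted p under 0.05 (1.71% of all genes). The difference of the genotype effect between the ends called 0 genes (0.00672% of all genes), and 0 at an unadjusted p under 0.05 (4.29% of all genes).

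Probe sets of a gene did not always give the same size of difference. The 31 genes had 89 probe sets, of which 81 passed the filter, and 20 genes had more than 1. In the control jaw comparison 41 of the 81 were called higher (50.6%), where 19.2% of all 27655 probe sets were called higher. The 2 called lower were 1 of Kcnq1ot1 and that of Nap1l5 (adjusted p = 0.0498 by limma over probe sets). All probe sets of a gene were above 0 in 12 of the 20 genes. Over the regions, 4 probe sets were called higher in knockouts and 0 lower, where 0.217% of all were called higher.

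For Peg3, Igf2, Plagl1 and Gnas, picked after their values were seen, the brightest probe set gave the smallest difference. The 3 tested probe sets of Peg3, with means of 13.56, 12.89 and 11.41, gave control jaw differences of 0.44, 0.83 and 1.87. The 2 of Igf2, with means of 14.04 and 8.46, gave 0.31 and 1.15. For Plagl1 a probe set with a mean of 9.95 gave 1.03 (adjusted p = 0.00161 by limma over probe sets) where the brightest gave 0.12, and for Gnas one with a mean of 6.26 gave 1.21 (adjusted p = 0.0125) where the brightest gave 0.01. Sgce and Impact turned the other way, with -0.40 and -0.22 in a dimmer set. Whether the brightest sets are close to saturation was not tested.

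Meg3 depended most on the probe set. Its brightest set did not pass in either comparison, but a set with a mean of 10.10 was called higher in knockouts (1.31, adjusted p = 0.000354 by limma over probe sets) and in control mandible (1.72, adjusted p = 4.23e-05). It lay between 10.12 and 10.46 in control mandible and between 11.06 and 11.79 in knockout mandible, without overlap. In the maxilla it lay between 8.05 and 8.97 in controls and between 9.12 and 11.03 in knockouts, again without overlap. Of the 11 Meg3 sets it was the lone one called in the genotype comparison. A second set of Rian, with a mean of 11.44, gave 1.04 in the genotype comparison (adjusted p = 0.00631) and 1.52 between the control jaws (adjusted p = 0.000131).

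**Figure D5:**
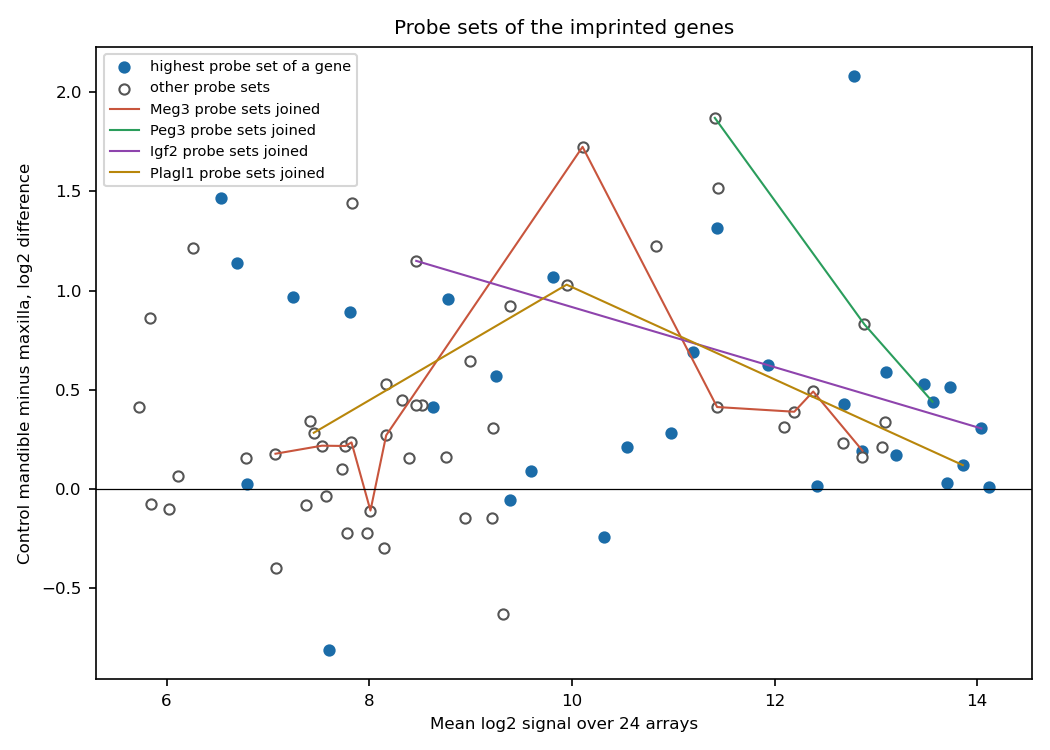
Control mandible minus maxilla log2 difference (vertical) against the mean log2 signal over 24 arrays (horizontal) for the 81 probe sets of the imprinted genes; filled points are the brightest set of a gene, and lines join the sets of 4 genes. The sets of Peg3 rise from 0.44 to 1.87 as their mean falls from 13.56 to 11.41, and 1 set of Meg3 stands at 1.72.

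Other genes connected with imprinting were read from 3 further lists. Of 32 other imprinted genes 22 were tested, and in control mandible 7 were higher (31.8%) and 1 lower, with a median of 0.12, where 16.2% of all genes were called higher and 14.7% lower. The largest were Dcn, a matrix proteoglycan (1.42), Gatm, an enzyme of creatine synthesis (1.31), Klf14, a zinc finger gene of the Mest domain (1.24), and Ddc, the aromatic amino acid decarboxylase (0.91). In the knockout proximal maxilla 1 was higher, Th, the enzyme that limits catecholamine synthesis (2.69, adjusted p = 0.0124 by limma), 1 of 22, where 3.25% of all genes were called higher. Over the regions 0 passed between the genotypes, with 8 higher and 1 lower at an unadjusted p under 0.05, where 12.6% of all genes were higher at that level.

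Of 21 genes that keep or set imprints 20 were tested. In control mandible 2 were called higher and 2 lower, shares below those of all genes (16.2% and 14.7%). The higher ones were Setdb1 (0.16), a histone methyltransferase, and Hnrnpu (0.11), a nuclear RNA-binding protein, and the lower ones Dnmt3b (-0.50), a DNA methyltransferase, and Tet2 (-0.17), an enzyme of DNA demethylation. In the knockout proximal maxilla Dnmt3b (-0.59) and Uhrf1 (-0.38), which brings DNMT1 to replicated DNA, were lower, 2 of 20, where 2.53% of all genes were. Over the regions 0 passed between the genotypes, with 0 higher and 7 lower at an unadjusted p under 0.05 by limma, where 12.6% of all genes were higher at that level. The share of all genes lower at that level is not given here, so the 7 are not read as a trait of this list.

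The IGF axis, which Igf2, Igf2r and Grb10 act on, was read from 14 further genes, of which 13 were tested. In control mandible 2 were higher, Igfbp3 (0.88), a carrier of IGFs, and Igf1 (0.42), and 6 were lower, with the largest falls for Pappa (-1.06), a protease of IGF carriers, and Irs2 (-0.60), a receptor substrate. The share called higher, 15.4%, was close to the 16.2% of all genes, and 14.7% of all genes were called lower. The median of the list was -0.22, while Igf2 and Igf2r were both higher in the mandible. In the knockout jaws Igf1 (0.44) and Igfbp3 (0.76) were again higher, and Pappa differed by -0.09 and did not pass. Over the regions 0 of 13 passed between the genotypes, with 1 higher and 0 lower at an unadjusted p under 0.05 by limma, where 12.6% of all genes were higher at that level.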

How the data were processed

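The deposited table holds log2 signal of 45101 probe sets on 24 arrays, made by the authors with RMA according to the submitters' processing notes, with no version given. Array medians lay between 7.26 and 7.38, and the number of arrays limits the precision. The platform annotation gave 1 symbol to 34945 probe sets, while 932 with several, 9160 without any and 64 control sets were dropped. The brightest probe set stood for each of 18193 genes, and genes above the 30th percentile of their array in at least 3 arrays were tested (14879). Limma 3.58.1 in R 4.3.3 fitted 8 group means with 16 residual degrees of freedom, and two-sided moderated p-values were adjusted by Benjamini-Hochberg over all genes tested, separately for each of 11 comparisons. An adjusted p under 0.05 was called. The fit was tested on simulated data. Summed marker levels are log2 of the sum of linear signals.

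The genes and lists, and the rule naming every measured gene and up to 4 called genes of a list per comparison, were chosen with earlier results of these data known. Genes named beyond it were chosen after their values were seen. The alternatives were cyclic loess, other filters, averaging a gene's probe sets or testing each singly, a trended robust prior, the array number as a block, and leaving out arrays. The labels number arrays 1 to 3. Deviations from group means were correlated between arrays of the same genotype and number with a median of 0.15, above 0.1 in 23 of 36 pairs. Between arrays of different numbers the median was -0.058, above 0.1 in 32 of 168 pairs. The Y-linked signal was carried by the control arrays of 1 number in all 4 regions, and by no others. Arrays of the same genotype and number may thus share a source. The main fit did not pair arrays by number, so its p-values between the genotypes may be too small.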

Additional observations from a re-analysis of the deposited data

How the results depend on the processing

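Under the alternatives other than leaving out 1 array, 106 of 117 counts of imprinted genes equalled the main count or stayed within 1.5 times it, and 11 moved. Many of the 106 were 0 in both fits, which says little about stability, and most of those that moved were counts between the genotypes. The control jaw count lay between 16 and 22 and the knockout jaw count between 15 and 19. The genotype count over the regions moved from 2 to 5 with the array number as a fixed replicate block (1102 of all genes called against 70), to 1 with a random block of genotype and number, to 0 with 6 means of genotype and number (0 of all genes), to 1 without the 4 control arrays numbered 2, and to 1 without the 4 arrays whose ends were in doubt. The proximal maxilla count moved from 5 to 8 with the fixed block, and to 0 without the control arrays numbered 2, without the arrays of doubtful end, and without knockout proximal maxilla 1 and 2. That last setting, chosen after seeing the data, leaves 1 array in its group, assumed to vary like the others, and also moved the distal mandible count to 1 and the count between the ends of the control mandible to 2. Leaving out 1 array gave 1 to 10 genes over the regions (10 without knockout proximal maxilla 3), 0 to 2 in the distal mandible, 0 in the proximal mandible and the distal maxilla, 0 to 14 in the proximal maxilla (0 without array 1 of either genotype or knockout 2, and 14 without knockout 3), 0 to 1 for genotype by jaw, by end and between the ends of the control mandible, 0 between those of the control maxilla, 20 to 22 between control jaws and 16 to 19 between knockout jaws. With the mean of all probe sets, Sgce (-0.094) and Impact (-0.0076) turned sign between control jaws, as did Impact between knockout jaws (-0.014). Inpp5f turned to -0.016 in the proximal maxilla without knockout arrays 1 and 2. Of 1570 values of called genes 1471 kept direction and call, 95 lost the call and 4 turned sign. Rian passed over the regions in 10 of 11 alternatives and in all 24 fits without 1 array (0.51 to 0.58). Causes were not tested, apart from fewer arrays in the settings that leave arrays out. Signals near the 30th percentile limit Zim1 and Peg10 in the maxilla.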
